A study of Arabidopsis thaliana with 8 samples.

Results

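Receptor-like kinases are proteins of the plant cell surface that join an outer domain, which binds a peptide, sugar, nucleotide or wall fragment, to a kinase inside the cell. They are sorted by that outer domain: leucine-rich repeat receptors bind mostly peptides and steroids and serve both development and immunity, lectin receptors carry a sugar-binding fold, cysteine-rich receptors carry a pair of cysteine-rich repeats and are often linked to stress, and wall-associated and malectin-like receptors sense the cell wall. Many need a co-receptor such as BAK1, and hand the signal to cytoplasmic kinases, calcium, an oxidative burst and MAP kinases. The genes described here were taken by name from the 3691 genes of the deposited tables: those whose RefSeq product name contains kinase together with receptor, leucine-rich repeat, lectin, cysteine-rich RLK or wall-associated, less 3 loci set aside. The rule gave 120 genes. By product name and symbol, 61 had leucine-rich repeats, 29 a lectin domain, 16 the cysteine-rich repeats, 2 were wall-associated, FER was the 1 malectin-like and PERK1 the 1 extensin-like member, and 10 had a name that states no class. In the annotation, 408 protein-coding genes meet the same rule, so the tables held 29.4% of them, against 13.3% of all protein-coding genes. The tables held 39.7% of the lectin, 39% of the cysteine-rich and 31% of the leucine-rich repeat genes, but 2 of 24 wall-associated and 1 of 10 malectin-like genes.

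The series compared Arabidopsis thaliana of ecotype Col-0, wild type in every group, after water or 2,5-dimethylpyrazine (2,5-D), a volatile pyrazine that microbes release. Roots and shoots were each taken from plants given water and from plants given 2,5-D at 100 µM on a paper disc in a divided plate, which makes 4 groups of 2 libraries. The labels name both an exposure of 24 hours and 14 days of growth beside the disc, so the time of contact is not settled. Nothing in the labels says whether the libraries of a group came from separate plants, and p-values therefore measure the spread between these libraries.

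Values are the authors' normalized expression signal, and whether they are scaled for gene length was not tested. Their unit is not stated and total depth is unknown. Listed values summed to 252870 to 343912 per library, and Pearson's r between the replicates of a group, across genes, was 0.93 in shoot water and 0.986 to 0.995 in the other groups. The shoot water libraries stood apart from each other: they were over 2-fold apart in 14 of 106 tested receptor kinase genes (13.2%, against 16.3% of all tested genes), whereas no member was that far apart in another pair (of all tested genes, 0.918% were in root water, 0.0574% in root 2,5-D and 0.326% in shoot 2,5-D). Of the 3691 listed genes, all but 2 had both 2,5-D libraries above or both below both water libraries in root, shoot or both. The tables thus look chosen on these same libraries, and calls within them are not independent evidence of a response. For the receptor kinases the count was 67 separated in both organs, 24 in root alone, 29 in shoot alone and 0 in neither. Root markers were higher in root (3 of 3 listed, of 10 on the list) and shoot markers in shoot (6 of 6 listed, of 13). Both sets were lower under 2,5-D: the endodermal genes CASP1, CASP2 and ESB1 summed to 121.45 to 128.43 in root water and 57.82 to 72.88 in root 2,5-D, and 6 photosynthesis genes to 16490.1 to 16951.6 in shoot water and 9024.69 to 10492.7 in shoot 2,5-D. Their part in the results below was not tested. In these bulk samples, fewer cells of a type and less RNA per cell cannot be told apart.

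Changes are given as log2 of the value plus 1, 2,5-D minus water, a scale that understates the change of low values. Testing with limma required an average value of 1 or more in the organ, which left 101 members in root and 106 in shoot. A gene was called at an adjusted p below 0.05 (Benjamini-Hochberg over all tested listed genes), and every adjusted p comes from limma. In root, 39 of 101 members fell (38.6%; 22.5% of all tested genes) and 25 rose (24.8%; 39% of all tested genes). Log2 changes of 1 or more were found for 14 falls (6.4% of all tested genes fell that far) and 9 rises (13.2%). The classes differed mainly in their falls. Of 57 leucine-rich repeat genes, 36 fell and 4 rose, with a median change of -0.79, while the median over all tested genes was 0.26. Of 28 lectin genes, 13 rose (46.4%, near the 39% of all tested genes) and 2 fell (median 0.40). Of 6 cysteine-rich genes that passed the filter, 4 rose and 0 fell (median 0.52), but these 4 calls were weak, as described below.

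**Figure D1:**
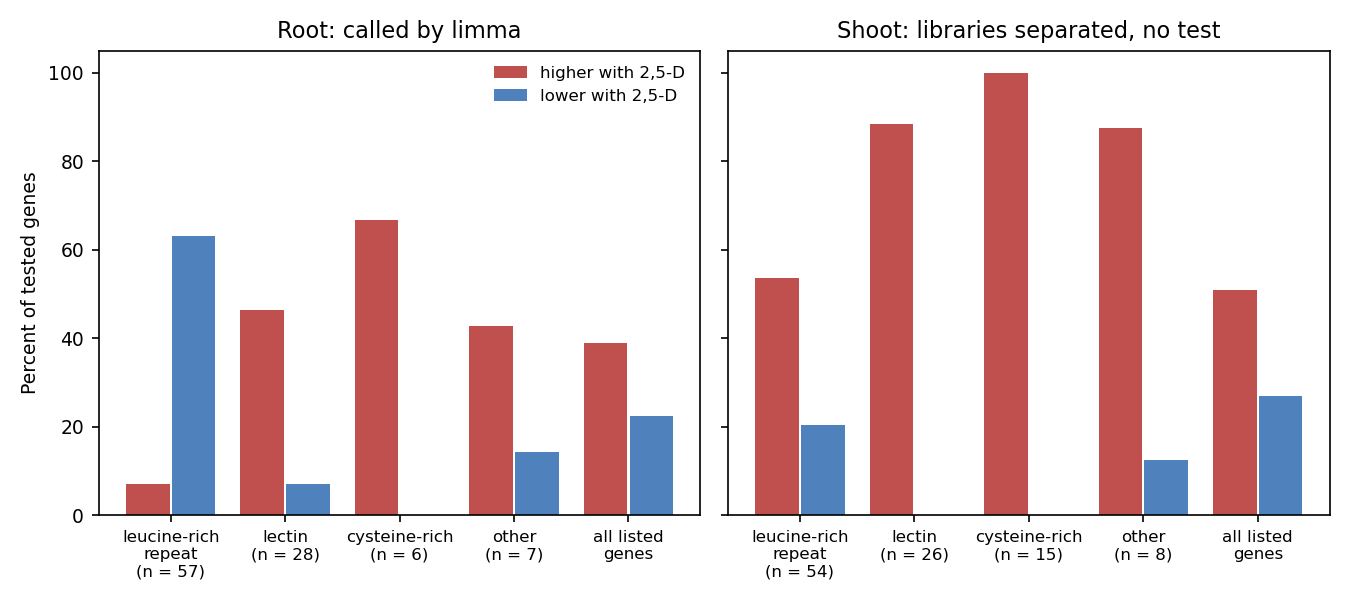
Share of tested genes (percent) higher (red) or lower (blue) under 2,5-D, by class and for all listed genes, in root (limma calls) and in shoot (both 2,5-D libraries beyond both water libraries, no test). In root 63.2% of leucine-rich repeat genes were lower (22.5% of all tested genes) and 46.4% of lectin genes higher (39% of all tested genes). In shoot all 15 cysteine-rich genes were higher (51% of all tested genes), 14 after rescaling to equal medians.

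In shoot, limma called none of the 106 members and 0 of the 3376 genes tested (0%), many at an adjusted p of 0.0524. At an unadjusted p below 0.05, 55 members were higher (51.9%; 30.1% of all tested genes) and 0 lower (0%; 19.2% of all tested genes). The count rested on the shoot water pair: 67 members were called higher without shoot water replicate 1, and 73 higher and 2 lower without shoot water replicate 2. With all 8 libraries in 1 limma fit it was 61 higher. Shoot results below are therefore described by whether both 2,5-D libraries lay beyond both water libraries, which 2 libraries against 2 cannot test, since the smallest exact two-sided permutation p is 0.333. By this measure 77 members stood higher (72.6%; 51% of all tested genes) and 12 lower (11.3%; 27%). The higher set held 29 of 54 leucine-rich repeat, 23 of 26 lectin and 15 of 15 cysteine-rich genes. The lower set held 11 leucine-rich repeat genes and RLK4 (AT4G00340), whose name states no class. The balance of the leucine-rich repeat genes turned with scaling, to 23 higher and 28 lower after rescaling to equal medians and 25 higher and 27 lower with the length trend removed. The median shoot change was 0.82 for lectin and 1.36 for cysteine-rich genes. That of the leucine-rich repeat genes was 0.18 and turned to -0.22 after rescaling to equal medians and to -0.15 with the length trend removed. Rescaling shifted the median of all genes by -0.40 in shoot and -0.11 in root, and removing the length trend shifted it by -0.11 in shoot.

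**Figure D2:**
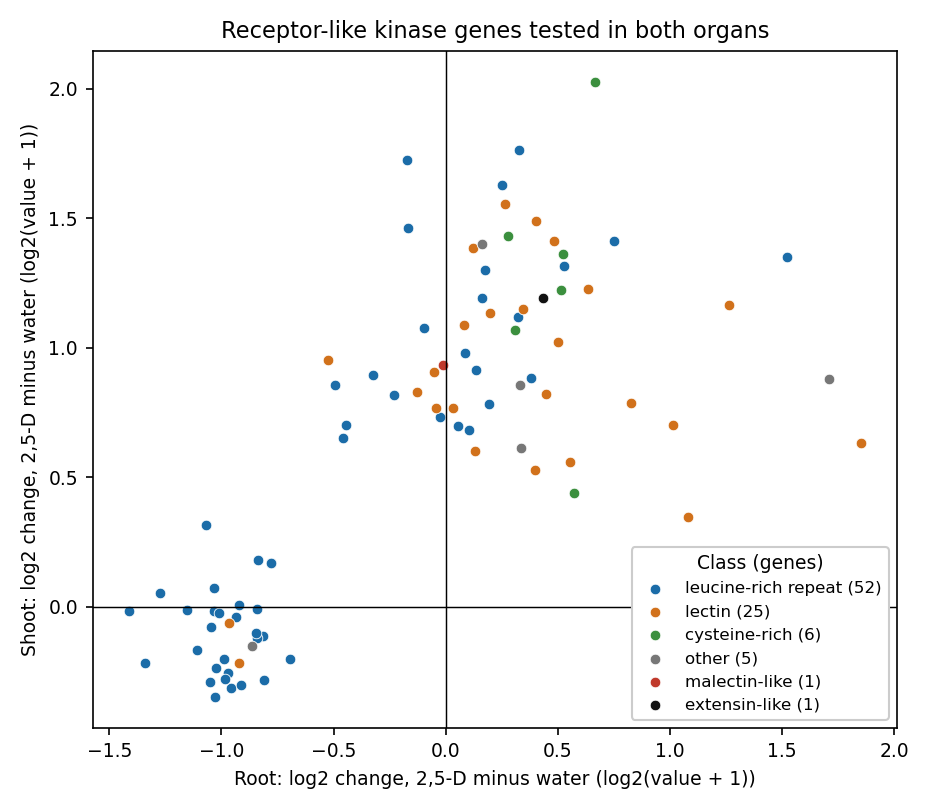
Log2 change under 2,5-D in root (x axis) and shoot (y axis) for the 90 members tested in both organs, 1 point per gene, coloured by class. The leucine-rich repeat genes called lower in root reach down to -1.41 on the x axis; of the other genes all but LecRK-VIII.1, LecRK-VIII.2 and RLK4 lie above 0 in shoot.

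Shoot values of the 90 members tested in both organs can be read by their root call. Of the 35 that fell in root, 12 stood lower, 7 higher and 16 overlapped in shoot, with a median shoot change of -0.08. Of the 18 that rose in root, 17 stood higher in shoot (median 1.09). All 37 with no call in root stood higher in shoot (median 0.98). Some of these 37 did separate in root, among them IOS1, SERK4 and SOBIR1 (higher) and RLK7 (lower). A gene that separated in neither organ would hardly have been listed. For those of the 37 that overlapped in root, only the direction in shoot is therefore free. Of all genes tested in shoot, 51% stood higher and 27% lower, but shares split by root call were not computed for all genes. These counts are therefore not shown to be particular to receptor kinases.

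All 10 of the largest falls in root were in leucine-rich repeat genes. PXY (AT5G61480), the receptor through which TDIF peptides keep vascular cambium cells dividing, stood at 11.4 and 15.5 in root water and at 4.11 and 4.68 under 2,5-D. Both treated libraries lay far below both controls. Its log2 change was -1.41 (SE 0.18, adjusted p = 0.000347). In shoot PXY was level, at 3.59 and 3.67 in water and 3.53 and 3.62 under 2,5-D.

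The other genes named after PXY moved the same way in root. PXL1 (AT1G08590) fell from 6.15 and 7.48 to 2.06 and 3.08 (log2 change -1.14, SE 0.20, adjusted p = 0.00128), and PXC3 (AT2G41820) from 10.9 and 15.2 to 4.96 and 6.54 (log2 change -1.05, SE 0.20, adjusted p = 0.00194). PXL2 (AT4G28650), PXC1 (AT2G36570) and PXC2 (AT5G01890) also fell, so that 6 of 6 genes so named had called log2 changes, of -1.41 to -0.84. Without root 2,5-D replicate 1, PXL2 and PXC2 missed the threshold (adjusted p = 0.0552 and 0.0597). This grouping was made after the values were seen. PXL1 and PXL2 were below 1 in every shoot library, and the 4 tested in shoot had log2 changes of -0.29 to 0.18.

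CLV1 (AT1G75820), the receptor that limits the stem cell pool of the shoot meristem on binding CLE peptides, stood in root at 17.4 and 19.6 in water and at 7.59 and 9.02 under 2,5-D. Its log2 change was -1.07 (SE 0.16, adjusted p = 0.000751). In shoot its values were 11.2 and 11.9 in water and 16.2 and 13.2 under 2,5-D, so that the treated libraries lay above the controls. Its shoot change of 0.31 (adjusted p = 0.184) was not called and turned to -0.09 with equal medians and -0.02 with the length trend removed. BAM1 (AT5G65700), a close relative of CLV1 that also binds CLE peptides, fell in root from 40.5 and 46.1 to 15.03 and 19.91 (log2 change -1.27, SE 0.18, adjusted p = 0.000513). BAM2 (AT3G49670), the next relative, fell from 6.42 and 7.70 to 2.58 and 2.87 (log2 change -1.11, SE 0.17, adjusted p = 0.000776). In shoot the libraries of both overlapped between treatments.

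**Figure D3:**
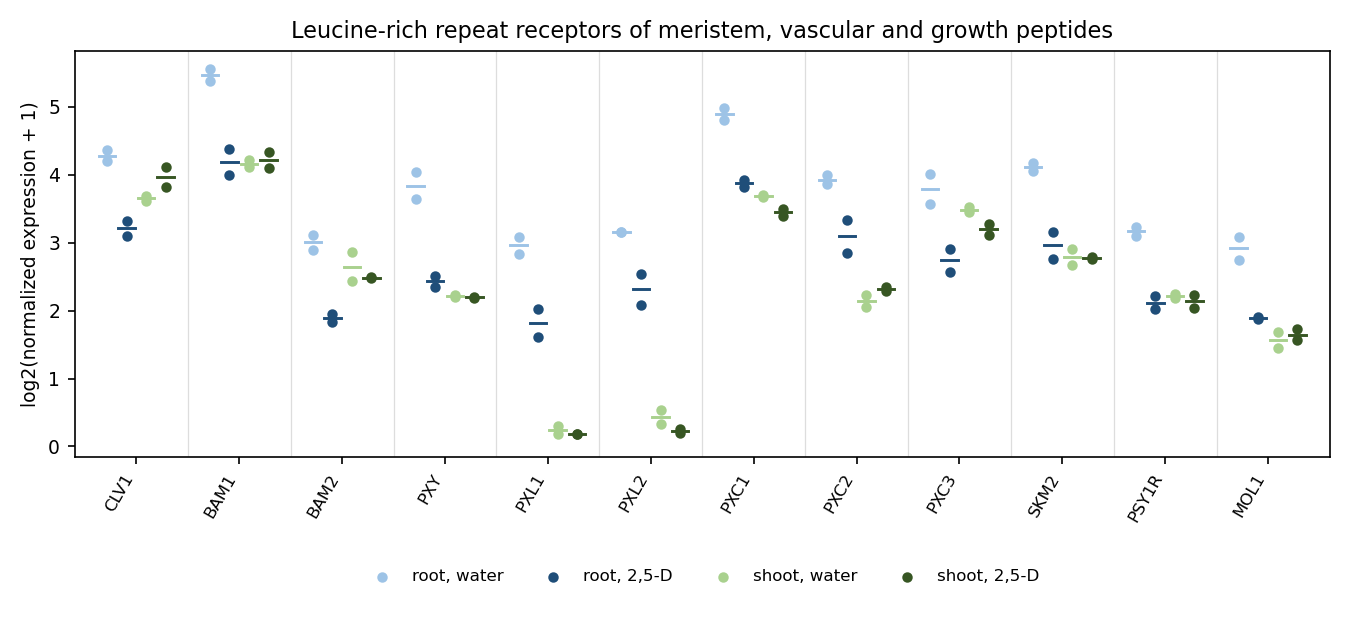
Normalized expression on the log2(value + 1) scale of 12 leucine-rich repeat receptor genes in the 4 groups; each point is a library and each bar the mean of 2. In root, both 2,5-D points lie below both water points for every gene shown; in shoot the groups lie close together.

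Further receptors of growth peptides were among the falls. SKM2 (AT5G56040), 1 of a pair of kinases known from pollen tube growth, fell in root from 15.7 and 17.0 to 5.81 and 7.90 (log2 change -1.16, SE 0.18, adjusted p = 0.000755). PSY1R (AT1G72300), named as the receptor of the sulfated peptide PSY1, fell from 8.40 and 7.59 to 3.08 and 3.63 (log2 change -1.05, SE 0.17, adjusted p = 0.000894). MOL1 (AT5G51350), a regulator of cambium activity outside the rule for named genes and picked after its values were seen, had a root change of -1.03. Neither SKM2 nor PSY1R separated in shoot (log2 changes -0.01 and -0.08).

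The 10 largest falls also held MEE62 (AT5G45800), named for embryo arrest in its mutant, which stood at 15.6 and 14.9 in root water and 5.15 and 5.69 under 2,5-D (log2 change -1.34, SE 0.16, adjusted p = 0.000196). AT2G26730, a leucine-rich repeat kinase with no given name, fell from 24.0 and 27.2 to 11.5 and 12.4 (log2 change -1.03, SE 0.16, adjusted p = 0.000716). All 10 stayed called in root with any 1 root library left out and under every other setting. Over the class, the 36 falls spanned -1.41 to -0.44, and between 27 and 37 leucine-rich repeat genes fell under the alternatives. The 27 came without root 2,5-D replicate 1. In shoot the 5 lowest members whose groups separated were AT3G28040 (log2 change -0.35), RLK902 (AT3G17840, -0.31), AT3G56370 (-0.30), PXC3 (-0.29) and AT2G27060 (-0.28). None of these 5 was called in shoot, and all had fallen in root.

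CEPR2 (AT1G72180), a receptor of the CEP peptides that report nitrogen demand between organs, was lower in root and higher in shoot. It stood in root at 6.79 and 6.07 in water and 4.10 and 4.72 under 2,5-D (log2 change -0.46, adjusted p = 0.0362), and in shoot at 11.5 and 11.8 in water and 18.75 and 18.97 under 2,5-D (log2 change 0.65, adjusted p = 0.0524). The difference between organs was -1.11 (SE 0.17, adjusted p = 0.0141). AT5G41180 and AT1G67720, both of unnamed function, had the same pattern, with root changes of -0.49 and -0.44 and shoot changes of 0.86 and 0.70. The 3 root calls were weak: none held without root 2,5-D replicate 1 (adjusted p = 0.196 for CEPR2, 0.193 for AT5G41180 and 0.171 for AT1G67720) or without root 2,5-D replicate 2 (adjusted p = 0.0837, 0.0564 and 0.113), and those of CEPR2 and AT1G67720 also missed the threshold without root water replicate 1 and with the length trend removed. These 3 were picked out after their values were seen.

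Several leucine-rich repeat genes with a known part in immunity were among the 37 members tested in both organs and not called in root. BAK1 (AT4G33430), the shared co-receptor of many pattern and hormone receptors, stood in root at 60.7 and 52.2 in water and 56.4 and 67.9 under 2,5-D (log2 change 0.13, adjusted p = 0.513). In shoot it stood at 30.6 and 36.1 in water and 67.7 and 59.8 under 2,5-D (log2 change 0.92, SE 0.18, adjusted p = 0.0524). The root groups overlapped and the shoot groups did not. Its paralogue SERK4 (AT2G13790), named outside the rule, was at 27.8 and 37.9 in shoot water and 124 and 102 under 2,5-D (log2 change 1.76, adjusted p = 0.0524). In root SERK4 was at 31.9 and 21.9 in water and, higher, at 32.3 and 34.6 under 2,5-D (log2 change 0.33, adjusted p = 0.1635). As BAK1 and SERK4 are close copies, reads may be shared between them.

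IOS1 (AT1G51800), a kinase that takes part in immune receptor complexes, was at 27.7 and 29.9 in shoot water and 96.8 and 85.6 under 2,5-D (log2 change 1.63, SE 0.16, adjusted p = 0.0524). RLK7 (AT1G09970), a receptor of immune PIP peptides, was at 124 and 126 in shoot water and 232 and 235 under 2,5-D (log2 change 0.90, SE 0.15, adjusted p = 0.0524). In both, shoot replicates lay close together and the treatments far apart. In root IOS1 was at 9.40 and 8.73 in water and, higher, at 10.3 and 11.65 under 2,5-D (log2 change 0.25, adjusted p = 0.182). It was called higher in root with the length trend removed (log2 change 0.40, adjusted p = 0.02755). In root RLK7 was at 183 and 161 in water and 130 and 144 under 2,5-D (log2 change -0.32, adjusted p = 0.109), and it was called lower with equal medians (adjusted p = 0.0469) and without root water replicate 2 (adjusted p = 0.00804). SOBIR1 (AT2G31880), a kinase that some receptor-like proteins use as a partner, had the highest level of its class. Its shoot water libraries, at 158 and 492, were so far apart that a log2 change of 1.12 had an SE of 0.61 (639 and 575 under 2,5-D, adjusted p = 0.214). In root SOBIR1 was at 204 and 167 in water and, higher, at 227 and 234 under 2,5-D (log2 change 0.32, adjusted p = 0.1215).

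The leucine-rich repeat gene AT1G35710 was expressed in shoot almost alone. It stood at 20.38 and 18 in shoot water and 75.8 and 73.9 under 2,5-D, and at 0.02 to 0.13 in the root libraries. The shoot change was 1.91 (SE 0.15, adjusted p = 0.0524). AT1G51890 was present in both organs, at 4.74 and 4.09 in shoot water and 21.1 and 13.5 under 2,5-D (log2 change 1.73). In root it was at 7.30 and 7.85 in water and, slightly lower, at 7.06 and 6.17 under 2,5-D (log2 change -0.17, adjusted p = 0.363). AT5G25930 was the 1 leucine-rich repeat gene that rose by at least 1 in root. It went from 44.4 and 45.7 to 136 and 126 (log2 change 1.52, SE 0.16, adjusted p = 0.000116), and stood in shoot at 16.5 and 34.2 in water and 64.9 and 59.4 under 2,5-D (log2 change 1.35, adjusted p = 0.0722).

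Of the 25 receptor kinase genes that rose in root, 13 were lectin genes; 46.4% of the class rose, against 39% of all tested genes. Of 17 L-type members, which carry a legume lectin fold, 10 rose and 2 fell. Of 9 tested members named as G-type, 3 rose and 0 fell, a share of rises below that of all tested genes. G-type members carry the fold of the S-locus glycoproteins. Types were read from names, so genes of unstated class, such as RLK4, could also belong to a lectin type. LecRK-VII.2 (AT4G28350) rose most, from 1.81 and 1.76 in water to 8.28 and 9.84 under 2,5-D (log2 change 1.85, SE 0.17, adjusted p = 7.2e-05). In shoot it was at 2.72 and 4.26 in water and 6.83 and 5.01 under 2,5-D, where the groups did not overlap but lay closer (log2 change 0.63, adjusted p = 0.131).

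LecRK-V members, a clade with known parts in stomatal immunity, rose together in root. LecRK-V.7 (AT3G59740) went from 3.30 and 2.34 to 7.47 and 9.53 (log2 change 1.32, SE 0.19, adjusted p = 0.000616), and LecRK-V.8 (AT3G59750) from 4.63 and 4.48 to 10.8 and 13.7 (log2 change 1.24, SE 0.17, adjusted p = 0.000465). LecRK-V.2 (AT1G70130), which lies on another chromosome, went from 21.0 and 16.6 to 43.2 and 49.5 (log2 change 1.26, SE 0.17, adjusted p = 0.000468). It missed the threshold with all 8 libraries in 1 fit (adjusted p = 0.0936). LecRK-V.5 (AT3G59700), named outside the rule, had a root change of 0.48 (adjusted p = 0.0281) that missed the threshold without root 2,5-D replicate 1 (adjusted p = 0.0548) or replicate 2 (adjusted p = 0.206). LecRK-V.5, V.7 and V.8 are neighbours of similar sequence, so reads may be split among them. In shoot LecRK-V.7 was at 0.03 to 0.09 in all 4 libraries.

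LecRK-I.7 (AT5G60270) rose in root from 9.65 and 8.83 to 18.9 and 22.6 (log2 change 1.08, SE 0.16, adjusted p = 0.000696), and LecRK-S.5 (AT5G06740) from 29.28 and 29.32 to 59.97 and 60.2 (log2 change 1.01, SE 0.15, adjusted p = 0.000704). LecRK-S.5 is mainly a root gene, at 0.17 to 2.07 in shoot libraries. LecRK-I.9 (AT5G60300), the receptor of extracellular ATP also called DORN1 and a neighbour of LecRK-I.7, was level in root, at 34.7 and 29.3 in water and 31.4 and 34.0 under 2,5-D (adjusted p = 0.867). In shoot it was at 17.3 and 17.9 in water and 29.5 and 31.8 under 2,5-D (log2 change 0.77, SE 0.13, adjusted p = 0.0524). The 2 L-type genes that fell in root were LecRK-VIII.1 (AT3G53380, log2 change -0.92) and LecRK-VIII.2 (AT5G03140, -0.96). Both belong to 1 clade, and their shoot libraries overlapped between treatments.

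**Figure D4:**
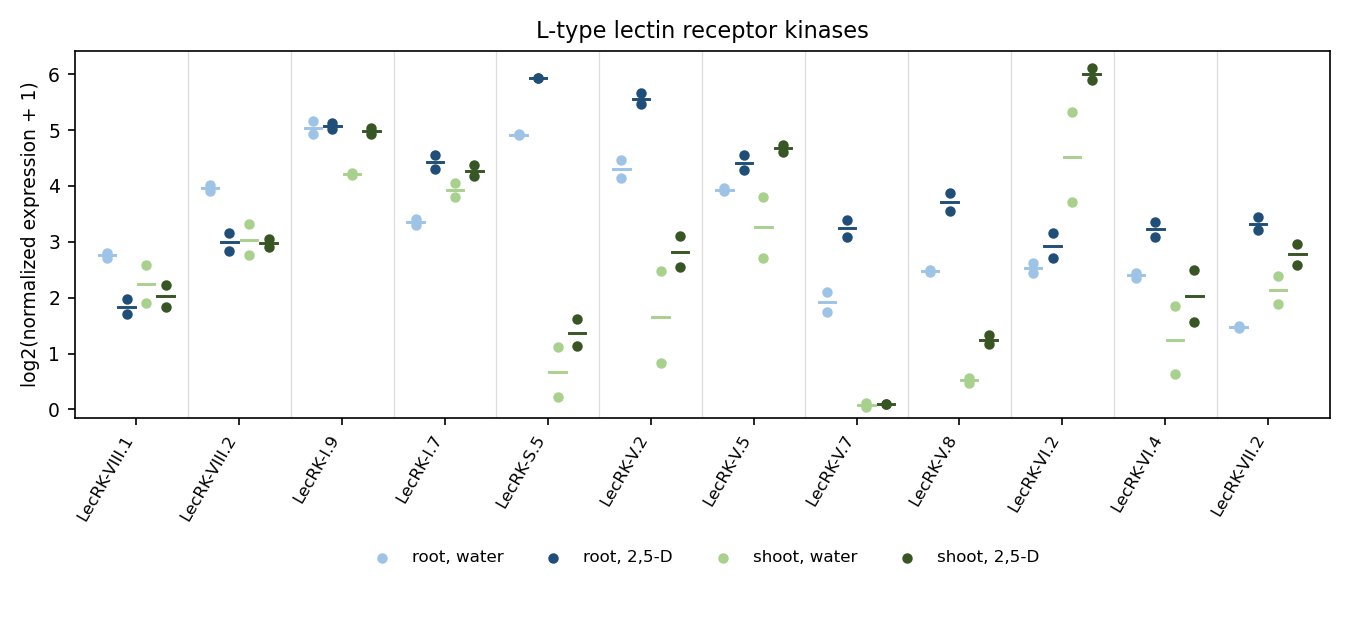
Normalized expression on the log2(value + 1) scale of 12 L-type lectin receptor kinase genes in the 4 groups; each point is a library and each bar the mean of 2. LecRK-VIII.1 and LecRK-VIII.2 were lower in root under 2,5-D, LecRK-I.9 was level in root, and LecRK-VII.2, V.2, V.7, V.8, I.7 and S.5 were higher in root.

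The lectin gene with the highest level in shoot was LecRK-IV.1 (AT2G37710), at 64.2 and 67.8 in water and 102 and 99.0 under 2,5-D (log2 change 0.60, adjusted p = 0.0595). All 9 genes named as G-type and tested in shoot stood higher under 2,5-D (51% of all tested genes), with a median change of 0.95. AT1G61360, a G-type gene, rose in root from 22.2 and 24.9 to 34.6 and 39.7 (log2 change 0.63, adjusted p = 0.00770), a call lost without root 2,5-D replicate 2 (adjusted p = 0.0990). LecRK-VI.2 (AT5G01540), a receptor kinase of bacterial immunity named outside the rule, was at 12.1 and 38.9 in shoot water and 68.4 and 58.4 under 2,5-D. The wide water pair left its shoot change of 1.49 at an adjusted p of 0.132. Between 7 and 16 lectin genes rose in root under the alternatives, with 8 without root 2,5-D replicate 2 and 7 with all 8 libraries in 1 fit.

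The listed cysteine-rich receptor kinases, 16 of 41 annotated, were mostly low in root. All 15 tested in shoot stood higher there under 2,5-D (51% of all tested genes). Others, such as CRK3, CRK11 and CRK19, had similar levels in water in both organs (log2 root minus shoot 0.18, -0.12 and -0.18). Of the 16 members, 10 were below the filter in root, among them CRK38 (AT4G04510), listed at 0 in every root library. Because genes so low in root could be listed through shoot alone, their separation in shoot is not a result. CRK20 and CRK23 averaged 0.45 and 0.605 in shoot water and 4.73 and 2.485 under 2,5-D. They passed the shoot filter through 2,5-D and could not have stood lower, so their direction is not a result either. For the others tested in shoot, the common direction is what the tables add. CRK12 (AT4G23200) was at 3.80 and 9.46 in shoot water and 31.7 and 23.1 under 2,5-D (log2 change 1.99, SE 0.45, adjusted p = 0.0537). CRK20 (AT4G23280) was at 0.10 and 0.80 in shoot water and 6.12 and 3.34 under 2,5-D (log2 change 1.98, SE 0.39, adjusted p = 0.0524). Both were near 0 in root. CRK13 (AT4G23210) and CRK36 (AT4G04490), both known for parts in defence, had shoot changes of 1.81 and 1.58 (adjusted p = 0.0524 for each).

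CRK31 (AT4G11470) had the largest shoot change of all members, 2.03, and also the widest error (SE 0.85, adjusted p = 0.141). Its shoot water libraries were at 0.34 and 5.36 and its 2,5-D libraries at 13.8 and 8.55. CRK31 rose in root, from 1.67 and 1.66 to 3.43 and 3.02 (log2 change 0.66, adjusted p = 0.00875). CRK10 (AT4G23180), the gene of the class with the highest level, was at 44.7 and 122 in shoot water and 200 and 151 under 2,5-D (log2 change 1.22, SE 0.56, adjusted p = 0.162). In root CRK10 rose from 16.4 and 12.1 to 21.21 and 19.98 (log2 change 0.52, adjusted p = 0.0304), and its neighbour CRK11 (AT4G23190) from 38.5 and 28.3 to 47.5 and 48.0 (log2 change 0.52, adjusted p = 0.0314). The 4 root calls were weak: they fell to 0 without either root 2,5-D library and to 2 without root water replicate 2, and there were 6 without root water replicate 1.

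**Figure D5:**
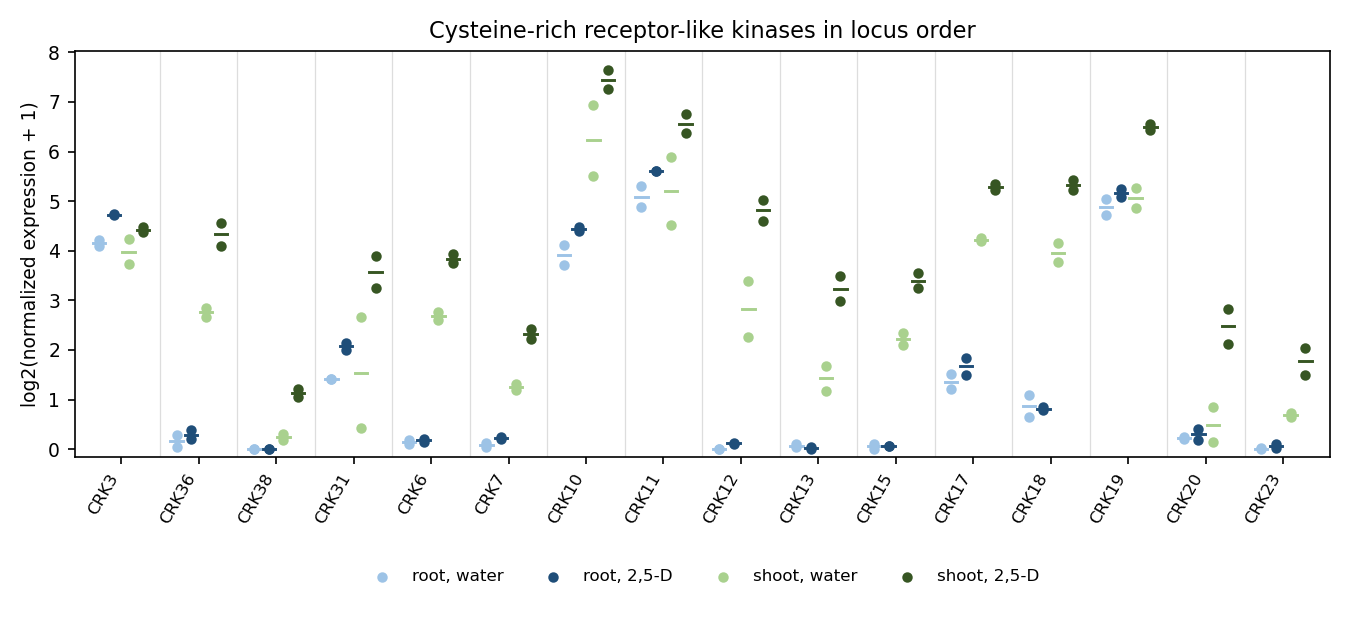
Normalized expression on the log2(value + 1) scale of the 16 cysteine-rich receptor kinase genes in locus order; each point is a library and each bar the mean of 2. Most lie near 0 in root, and in shoot the 2,5-D points lie above the water points for every gene; the water points of CRK10, CRK11, CRK12 and CRK31 are far apart.

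The 12 genes from CRK6 (AT4G23140) to CRK23 (AT4G23310) form 1 run of near neighbours, with at most 4 other genes between members. In shoot 12 of 12 stood higher (51% of all tested genes), with log2 changes of 1.06 to 1.99. In root 4 of them passed the filter and 2 were called higher. Tandem copies can share reads, and how the authors placed such reads is not stated, so the values of single genes of the run are uncertain. Over all members, 11 runs held 34 genes and 86 stood alone.

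Among the wall-associated, malectin-like and extensin-like members, WAK3 alone had a called difference of response between organs. For the others the adjusted p of the difference by limma was 0.0840 (FER), 0.1526 (WAKL1) and 0.2475 (PERK1). WAK3 (AT1G21240), a wall-associated kinase, was at 7.33 and 5.97 in shoot water and 30.9 and 28.2 under 2,5-D (log2 change 2.00, SE 0.15, adjusted p = 0.0524) and at 0.09 to 0.18 in root. WAKL1 (AT1G16120), its relative, was found in root, where it rose from 2.15 and 1.82 to 3.11 and 3.71 (log2 change 0.56, adjusted p = 0.0219). That call was lost without either root 2,5-D library (adjusted p = 0.0797 and 0.176). FER (AT3G51550), the malectin-like receptor of RALF peptides, stood in root at 237 and 158 in water and 181 and 203 under 2,5-D (adjusted p = 0.962), with overlapping groups. In shoot FER was at 66.9 and 94.1 in water and 155 and 149 under 2,5-D (log2 change 0.93, SE 0.23, adjusted p = 0.0588). PERK1 (AT3G24550), with an extensin-like outer domain, was at 50.8 and 96.7 in shoot water and 169 and 154 under 2,5-D (log2 change 1.19, SE 0.37, adjusted p = 0.0796). In root PERK1 was at 148 and 102 in water and, higher, at 166 and 167 under 2,5-D (log2 change 0.43, adjusted p = 0.0788).

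Among genes whose name states no class, 3 called receptor-like protein kinase-related rose in root. AT5G48540 went from 25.2 and 30.6 to 96.4 and 89.9 (log2 change 1.71, SE 0.17, adjusted p = 8.9e-05), AT1G61750 from 1.21 and 1.04 to 3.75 and 3.58 (log2 change 1.14, adjusted p = 0.000772), and AT5G41280 from 9.80 and 7.80 to 15.04 and 19.26 (log2 change 0.89, adjusted p = 0.00271). AT1G61750 and AT5G41280 were at 0 to 0.11 in every shoot library. AT3G22060, a further gene with that name, was highest in shoot, at 94.4 and 95.8 in water and 179 and 167 under 2,5-D (log2 change 0.85, adjusted p = 0.0524). Such names do not state that a kinase domain is present.

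Whether the response differed between organs was tested as the root change minus the shoot change, in 1 limma fit of all 8 libraries. Of 116 members tested, 60 had a lower response in root (51.7%; 22.5% of all tested genes) and 6 a higher one (5.17%; 10.4%). Differences of 1 or more were called for 35 lower (8.66% of all tested genes) and 3 higher (7.22%). The lower set held 38 leucine-rich repeat, 10 cysteine-rich and 9 lectin genes; the higher set held 4 lectin genes and 2 of unstated class. With equal medians the counts were 21 lower and 8 higher, and with the length trend removed 16 and 5. Counts changed with single libraries: none was called without root 2,5-D replicate 1, 2 were lower without shoot 2,5-D replicate 1 and 9 without shoot 2,5-D replicate 2, and 25 lower and 3 higher were called without root water replicate 2. Without root water replicate 1 there were 35 lower and 3 higher, without root 2,5-D replicate 2 there were 34 and 1, without shoot water replicate 1 there were 64 and 9, and without shoot water replicate 2 there were 80 and 5. Some calls rest on genes hardly expressed in 1 organ. Among the 90 members tested in both organs, 46 had a lower and 2 a higher response in root (22.1% and 8.37% of all genes tested in both). The most negative called differences were those of WAK3 (-2.05, SE 0.19, adjusted p = 0.00864), AT1G35710 (-2.04, SE 0.16, adjusted p = 0.00709), CRK20 (-1.90, adjusted p = 0.0240), AT1G51890 (-1.90, adjusted p = 0.0155) and CRK12 (-1.87, adjusted p = 0.0331). Of these, AT1G51890 alone was expressed above the filter in root. Among called genes, the most positive were LecRK-V.7 (1.303), LecRK-VII.2 (1.22), AT1G61750 (1.21), AT5G41280 (0.89) and LecRK-I.7 (0.73). LecRK-VII.2 and LecRK-I.7 were present in both organs.

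Levels in water of the listed members also differed by class between organs. As root and shoot come from separate tables, this is a description. Of 112 members with enough signal, 32 were at least 2-fold higher in root water than in shoot water, with no overlap (28.6%; 28.4% of all genes compared), and 20 were higher in shoot water (17.9%; 17.3%). At 4-fold the balance turned, to 9 higher in root water (13.8% of all genes compared) and 14 in shoot water (11.2%). By class, 22 of 59 leucine-rich repeat genes were higher in root water and 4 in shoot water. Of 11 cysteine-rich genes, 0 were higher in root water and 7 in shoot water. The filter used the mean over the water libraries of both organs. Genes near 0 in root, such as CRK6 and CRK12, passed it through shoot water alone, so the cysteine-rich count follows in part from filter and listing. Of the 36 leucine-rich repeat genes that fell in root, 19 were at least 2-fold higher in root water than in shoot water, against 3 of the 21 others tested. Both measures use the same root water libraries, so a high root water value raises both. The same split over all listed genes was not computed, so no conclusion is drawn from it. The median exonic length was 2900 bases for members and 3351 for leucine-rich repeat genes, against 1740 for all listed genes.

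Genes that act beside the receptors were read from lists. Of 9 tested precursors of peptide ligands, 8 rose in root and 0 fell, with PSK4 (AT3G49780, log2 change 1.59) and PSK2 (AT2G22860, 1.28), precursors of the growth peptide phytosulfokine, at the top. The precursor gene PSY1 (AT5G58650) rose in root (log2 change 0.69, adjusted p = 0.0178), where PSY1R fell; it was picked after its values were seen, and its call was lost without root 2,5-D replicate 1 (adjusted p = 0.228) or replicate 2 (adjusted p = 0.0607). In shoot, 3 of 9 ligand genes stood higher and 4 lower (51% and 27% of all tested genes), among the latter STOMAGEN (AT4G12970), which promotes stomata and whose log2 change was -1.41 (adjusted p = 0.0524). Of 4 listed cytoplasmic partners, 3 rose in root: RIPK (AT2G05940, 0.91), BIK1 (AT2G39660, 0.71), a kinase that immune receptors phosphorylate, and CST (AT4G35600, 0.66). Of 7 MAP kinase genes 2 rose, MAPKKK18 (AT1G05100, 1.87) and MPK11 (AT1G01560, 1.60). Of 5 oxidative burst and calcium genes 2 rose, CPK28 (AT5G66210, 0.76) and CPK32 (AT3G57530, 0.46). Of 5 ubiquitin ligases 4 rose, led by ATL31 (AT5G27420, 1.16) and PUB22 (AT3G52450, 0.71). None fell in root in these 5 lists. Over all tested genes of the tables, 39% rose and 22.5% fell. The calls of CST, CPK28, CPK32 and PUB22 were lost without either root 2,5-D library, that of RIPK without replicate 1 (adjusted p = 0.0623) and that of BIK1 without replicate 2 (adjusted p = 0.0932). Those of MPK11 (adjusted p = 0.122) and ATL31 (CNI1; adjusted p = 0.0863) were lost with all 8 libraries in 1 fit.

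Receptor-like proteins, which have leucine-rich repeats outside the cell but no kinase, numbered 24 in the tables. Some receptor-like proteins act with SOBIR1. Of the 23 tested in shoot, 21 stood higher under 2,5-D and 0 lower (51% and 27% of all tested genes). The median change was 1.06, against 0.37 over all tested genes. As 10 of the 24 passed the filter in root, most could be listed through shoot alone, so their separation there is not a result. RLP7, RLP20, RLP21, RLP43, RLP52 and RLP53 averaged 0.66 to 0.975 in shoot water and passed the shoot filter through 2,5-D. They could not have stood lower, yet they count among the 21 and in the median. RLP12 (AT1G71400) was at 2.57 and 6.44 in shoot water and 19.1 and 12.9 under 2,5-D (log2 change 1.70, adjusted p = 0.0621), and RLP52 (AT5G25910) had a shoot change of 1.45 (adjusted p = 0.0534). In root, 10 passed the filter and RLP12 alone was called, lower (log2 change -0.49, adjusted p = 0.0351), a call lost without either root 2,5-D library.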

How the data were processed

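Reads were aligned with HISAT2 2.0.4, per the submitters' processing notes. Build, annotation, strand setting and counting program were not given in the sources used here. Deposited files hold a normalized expression signal per gene, made by the authors, with root and shoot in separate tables; FPKM or TPM could not be settled, so no count test was run. Both shoot 2,5-D columns are headed replicate 1, so their numbers are names only. RefSeq (TAIR10.1) gave names and exonic lengths. The test was limma 3.58.1 under R 4.3.3, fitted to log2(value + 1) allowing for a mean-variance trend, for genes with a mean of 1 or more; the code was tested on simulated data. Members, gene lists and named-gene rule were chosen with earlier results of these data known. Named were the 10 largest called changes per organ and direction (where fewer than 5 were called, the 5 largest with separated groups), the 5 largest organ differences each way, the 2 highest-level members per class, known receptors, and the 2 largest changes per list and organ; others are said to be picked after their values were seen, also PXL2, PXC1, PXC2, LecRK-VIII.1, LecRK-VIII.2 and RLK4. Class words for 3 genes were widened after their names were read. A calcium ATPase sharing a synonym with a peptide was taken off the ligand list, and 2 other proteins off the receptor-like protein list. Alternatives were another pseudocount (0.1), no filter, equal medians, a removed length trend, no mean-variance trend, a replicate block, 1 fit of all libraries and each library left out.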

Additional observations from a re-analysis of the deposited data

Results flagged for a closer look

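The response to 2,5-D differed between root and shoot for 33 of the genes named, by the limma test of the root change minus the shoot change. None of the 32 that could be tested without root 2,5-D replicate 1 held there; AT1G61750 then missed the minimum mean. It was lower in root for WAK3 (-2.05), AT1G35710 (-2.04), CRK20 (-1.90), CRK12 (-1.87), CRK13 (-1.86) and CRK36 (-1.45), all of which were near 0 in root, and for AT1G51890 (-1.90), IOS1 (-1.38), RLK7 (LRR XI-23; -1.22) SERK4 (-1.44) and LecRK-I.9 (-0.73), which both organs expressed and which stood higher with 2,5-D in shoot. It was also lower for receptors that fell in root: PXY (-1.39), CLV1 (-1.38), BAM1 (-1.33), SKM2 (AT5G56040; -1.14), MEE62 (-1.12), PXL1 (AT1G08590; -1.09), AT2G26730 (-1.02), PSY1R (-0.97), BAM2 (-0.94), MOL1 (-1.1), PXC1 (AT2G36570; -0.79), PXC2 (AT5G01890; -1.02), CEPR2 (AT1G72180; -1.11), AT5G41180 (-1.35) and AT1G67720 (-1.15), and for the receptor-like protein RLP12 (-2.18). It was higher in root for LecRK-V.7 (AT3G59740; 1.3), LecRK-VII.2 (AT4G28350; 1.22), AT1G61750 (1.21), AT5G41280 (0.89) and LecRK-I.7 (AT5G60270; 0.73), and for the peptide gene STOMAGEN (1.86), which was near 0 in root and lower with 2,5-D in shoot.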

How the results depend on the processing

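With 2 libraries a group, a fit that leaves 1 out assumes that the lone library varies like the other groups. In root, 39 members lower became 29 to 41 and 25 higher became 13 to 34 when libraries were left out in turn, and 13 were higher with all 8 libraries in 1 fit. In shoot, 0 higher became 0 to 73 and 0 lower 0 to 2 on leaving out libraries, 10 higher and 2 lower with equal medians, and 61 higher in 1 fit of all libraries; members with both 2,5-D libraries below both water libraries were 12, 30 after rescaling to equal medians and 28 after removing the length trend. For the difference between organs, 60 lower became 0 to 80 and 6 higher 0 to 9 on leaving out libraries, 21 lower after rescaling to equal medians, 16 after removing the length trend, and 2 higher (41 lower) with a pseudocount of 0.1. At 4-fold, 9 members were higher in root water and 14 in shoot water.

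The replicate block in root gave 25 higher and 40 lower; replicates share only a number, as same-numbered deviations correlated at -0.05. No paired analysis was possible because the shoot 2,5-D headers carry 1 number, for shoot and for the difference.

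The sign turned in 31 of the settings tried on single genes, called under neither setting. With equal medians these were shoot LecRK-I.7 (AT5G60270; -0.05), BAM1 (-0.35), CLV1 (-0.09), MOL1 (-0.33) and PXC2 (AT5G01890; -0.22), and root LecRK-I.9 (-0.08). With the length trend removed they were shoot BAM1 (-0.29), CLV1 (-0.02), MOL1 (-0.21), PXC2 (-0.20) and PSY1 (0.48), and root AT1G51890 (0.00) and FER (0.15). On leaving out libraries, the shoot change ran from -0.07 to 0.18 for BAM1, -0.13 to 0.10 for SKM2 (AT5G56040), -0.38 to 0.04 for BAM2, -0.17 to 0.02 for PSY1R, -0.13 to 0.10 for AT2G26730, -0.05 to 0.19 for MOL1, -0.56 to 0.12 for LecRK-VIII.1 (AT3G53380), -0.34 to 0.22 for LecRK-VIII.2 (AT5G03140), -0.64 to 0.30 for PSY1 and -0.21 to 1.3 for ATL31 (CNI1), and the root change from -0.30 to 0.28 for FER and -0.08 to 0.15 for LecRK-I.9. The cause was not tested. Depth is unknown, so counting error could not be given.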
